A study of Mus musculus with 6 samples.

Results

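The genes described here are the cyclins, kinases and inhibitors that act before S phase: the D-type cyclins Ccnd1, Ccnd2 and Ccnd3, the E-type cyclins Ccne1 and Ccne2, the kinases Cdk4 and Cdk6, and the CDK inhibitors Cdkn1b (p27Kip1), Cdkn2a (p16Ink4a and p19Arf) and Cdkn2b (p15Ink4b). Every probe set that the array annotation assigns to 1 of these 10 genes alone was taken, which gave 26 of 45037 probe sets, and 10 of the 18193 genes that such a probe set stands for. Undifferentiated mouse induced pluripotent stem cells (iPSCs) were measured on 1-colour Affymetrix arrays, 1 array per clone. The 3 (+)/(+) clones (numbers 4, 5 and 6) were given 3i while the fibroblasts were reprogrammed and again while the lines were maintained, and the 3 (-)/(+) clones (numbers 1, 2 and 3) were given 3i in maintenance only. The comparison is therefore between established lines that differ in the use of 3i in the reprogramming phase. A lasting effect of 3i and the growth of other clones under 3i cannot be told apart in it. 3i combines CHIR99021, an inhibitor of GSK3, with PD184352, an inhibitor of MEK, and SU5402, an inhibitor of FGF receptors. All 6 lines share their other history: embryonic fibroblasts of Nanog-GFP mice, retroviruses carrying Oct3/4, Sox2, Klf4, c-Myc and dsRed, LIF and serum, and mitomycin-treated SNL feeder cells, a fibroblast line. Each line is 1 clone with 1 array. The spread within a group therefore holds differences between clones together with those of culture, RNA and hybridisation.

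In most cells mitogens raise the D-type cyclins, which bind Cdk4 or Cdk6 and begin to phosphorylate the retinoblastoma protein. E2F factors are then released, cyclin E with Cdk2 completes the step, and the cell enters S phase. Proteins of the INK4 class, among them p15Ink4b and p16Ink4a, bind Cdk4 and Cdk6 and keep D-type cyclins off, whereas p27Kip1 binds cyclin-kinase complexes, above all those of Cdk2. Mouse pluripotent cells are known for a short G1 phase, low D-type cyclins and high cyclin E activity. FGF-MEK and Wnt-GSK3 signalling, the pathways that 3i acts on, are known regulators of D-type cyclin transcription and stability.

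Promoter sequences were at hand for 7 of the 10 genes (9 promoters, from RefSeq, GRCm38.p6, 250 bases before to 50 bases from the start on). Those of Cdk6, which was among the genes with lower signals in (+)/(+) clones, and of the neighbouring genes Cdkn2b and Cdkn2a, which make up the Ink4-Arf locus and of which Cdkn2b had groups that did not overlap and Cdkn2a groups that did, are shown here 5′ to 3′ on the strand of the gene. Capitals mark matches, on both strands, to the words of E2F (TTTCCCGC, TTTCGCGC, TTTGCCGC or TTTGGCGC), the cyclic AMP response element or CRE (TGACGTCA), the GC box of Sp1-type factors (GGGCGG), AP-1 (TGAGTCA), TCF/LEF (ATCAAAG, also with TT, AA or TA as its first letters) and the TATA box (TATAAA).
Cdk6, chr5:3343643-3343942, plus strand: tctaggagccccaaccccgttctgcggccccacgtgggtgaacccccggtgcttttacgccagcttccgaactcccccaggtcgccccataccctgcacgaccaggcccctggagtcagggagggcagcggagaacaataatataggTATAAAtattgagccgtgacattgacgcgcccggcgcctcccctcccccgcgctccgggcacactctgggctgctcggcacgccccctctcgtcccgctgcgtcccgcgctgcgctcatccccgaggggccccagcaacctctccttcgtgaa
Cdkn2b, chr4:89310983-89311282, minus strand: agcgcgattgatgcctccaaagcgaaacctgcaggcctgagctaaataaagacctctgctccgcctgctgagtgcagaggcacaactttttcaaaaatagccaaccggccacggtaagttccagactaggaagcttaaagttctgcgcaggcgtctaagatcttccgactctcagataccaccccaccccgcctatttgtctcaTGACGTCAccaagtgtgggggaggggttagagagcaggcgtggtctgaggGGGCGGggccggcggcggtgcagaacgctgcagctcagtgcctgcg
Cdkn2a, upstream start, chr4:89294570-89294869, minus strand: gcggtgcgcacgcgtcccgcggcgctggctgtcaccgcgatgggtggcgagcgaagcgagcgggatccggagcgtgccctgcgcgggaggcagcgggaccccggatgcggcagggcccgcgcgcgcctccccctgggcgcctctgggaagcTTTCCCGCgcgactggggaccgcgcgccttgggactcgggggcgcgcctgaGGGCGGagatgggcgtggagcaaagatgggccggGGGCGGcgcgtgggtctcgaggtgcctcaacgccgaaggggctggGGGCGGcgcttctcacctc
Cdkn2a, downstream start, chr4:89282143-89282442, minus strand: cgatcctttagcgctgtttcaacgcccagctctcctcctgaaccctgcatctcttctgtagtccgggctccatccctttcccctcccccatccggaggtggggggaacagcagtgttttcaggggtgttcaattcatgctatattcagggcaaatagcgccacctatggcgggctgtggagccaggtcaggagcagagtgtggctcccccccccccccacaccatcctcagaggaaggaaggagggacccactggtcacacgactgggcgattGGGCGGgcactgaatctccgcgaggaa
The Cdk6 window held 1 match, a TATA box word at position -103, and none to the other words. The Cdkn2b window held the CRE word at -46 and a GC box at 5. The upstream Cdkn2a start, where the known organisation of the locus places the first exon of Arf, had an E2F word at -99 and 3 GC boxes at -48, -14 and 32. The downstream start, the position of the Ink4a first exon, had 1 GC box at 24. Matches to different words did not overlap in these 4 windows. Among 32851 mouse promoters of the same length, 2.26% held an E2F word, 1.79% the CRE, 35.7% a GC box, 5.2% the AP-1 word, 16.9% a TCF/LEF word and 13.6% the TATA word. These matches describe letters in a window and were not measured in the cells.

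The arrays had been scaled by the authors to 1 level, a mean of 500 without the highest and lowest 2% of signals. Median signals were 64.1 to 70.2 in (+)/(+) clones and 74.3 to 75.7 in (-)/(+) clones. The 3′ to 5′ ratio of Gapdh was 0.82 to 0.87 in (+)/(+) clones and 0.82 to 0.85 in (-)/(+) clones. All 10 pluripotency markers fixed for the check passed the signal filter in iPSCs, and 0 were called by limma (2 higher and 1 lower in (+)/(+) clones at an unadjusted p under 0.05, against 8.75% and 12.1% of all 11177 tested genes). Clone 4 had a raised chromosome 8 (median log2 shift 0.41 over 329 genes) and clone 1 a raised chromosome 11 (0.27 over 502 genes), where none of the 10 genes lies.

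The D-type cyclins Ccnd1 and Ccnd2 and their partner Cdk6 had lower signals in (+)/(+) clones, the E-type cyclin Ccne2 had a higher signal, and the other 6 genes were not called. A signal is the linear MAS 5.0 value of a probe set. Probe sets bind with different strength, so signals were compared between clones and not between genes. Differences are given on the log2(signal + 16) scale, (+)/(+) minus (-)/(+), from limma across the 22518 probe sets whose mean exceeded the median over all, with Benjamini-Hochberg adjustment over all of them and a threshold of 0.05. Of the 26 probe sets, 21 were tested and 5 were too dim, with signals of 14.2 to 102 and groups that overlapped in all 5. At the tested ones 10 were called lower and 1 higher in (+)/(+) clones, 52.4% in all, against a background of 1.77% lower, 1.35% higher and 3.12% in either direction. The genes were chosen with earlier results of these data known, so these shares are no test of the members as a set. The 10 lower probe sets belong to Ccnd1, Ccnd2 and Cdk6, and those of 1 gene are read from the same RNA. The lower count was 0 without clone 3, 5 or 6, 3 without clone 2 or 4 and 11 without clone 1, and it was 1 without the signal filter and 2 without the mean-variance trend of the fit. By the methods' t-test, run here on the log2 values with the same adjustment, 0 were called. In it 12 of the 21 had an unadjusted p under 0.05, against 17.8% of all probe sets (13 and 21.2% in limma). The study itself named no adjustment, but a p under 0.05 with a change over 2.5-fold and an average signal above 500. Read at 1 probe set per gene, the brightest on average and called its leading probe set here, 3 genes were lower and 1 higher, against a background of 1.41% and 1.55% of 11177 genes. The groups did not overlap at 13 of the 21 tested probe sets (61.9%), 12 lower and 1 higher, against 27.1% of all tested probe sets.

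**Figure D1:**
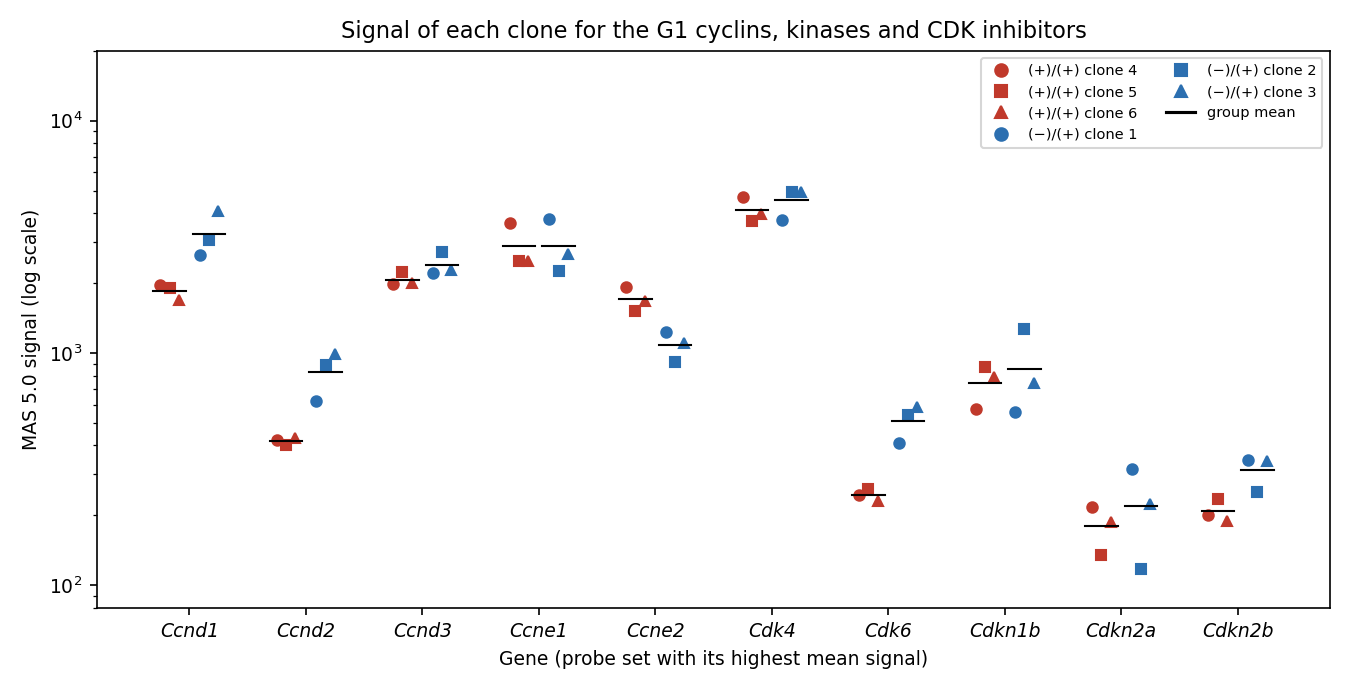
MAS 5.0 signal (log scale) of each clone at the leading probe set of each gene, with (+)/(+) clones in red, (-)/(+) clones in blue and group means as black bars. For Ccnd1, Ccnd2, Cdk6 and Cdkn2b all (+)/(+) clones lie below all (-)/(+) clones, for Ccne2 all lie above them, and for the other 5 genes the groups overlap. Of all tested genes, 26.3% had groups that did not overlap.

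Ccnd1 encodes cyclin D1, the D-type cyclin best known as a target of mitogen signalling. At its leading probe set (1417420_at) its signal was 1954, 1907 and 1698 in (+)/(+) clones 4, 5 and 6, against 2645, 3066 and 4067 in (-)/(+) clones 1, 2 and 3. The (+)/(+) clones lay close together and all below the lowest (-)/(+) clone, while the (-)/(+) clones were spread, with clone 3 highest. The means were 1853 ± 136 in (+)/(+) and 3260 ± 730 in (-)/(+) clones (SD, n = 3 each), a difference of -0.79 ± 0.15 (SE) on the log2 scale with a 95% interval of -1.12 to -0.46 (limma, adjusted p = 0.027). Its other probe sets gave -0.83 (1448698_at, limma adjusted p = 0.041) and -0.75 (1417419_at, limma adjusted p = 0.048), so all 3 probe sets of Ccnd1 were called lower. The adjusted p of the leading probe set was 0.065, 0.074, 0.13 and 0.074 without clone 4, 5, 6 or 3 in turn, each with a lower signal in (+)/(+) clones, and 0.0084 without clone 1.

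Ccnd2 encodes cyclin D2. Its signal at 1434745_at was 421, 401 and 432 in (+)/(+) clones, against 618, 884 and 995 in (-)/(+) clones. The (+)/(+) clones were again tightly grouped below all (-)/(+) clones, of which clone 1 was the lowest. Means of 418 ± 15.6 in (+)/(+) and 832 ± 193 in (-)/(+) clones gave a 1.99-fold lower signal and a log2 difference of -0.94 ± 0.17 (SE; 95% interval -1.32 to -0.56; limma, adjusted p = 0.023). Of its other 5 tested probe sets, 4 were called lower, with log2 differences between -1.03 and -0.95 and limma adjusted p-values of 0.022 (1416122_at), 0.026 (1448229_s_at), 0.035 (1430127_a_at) and 0.0496 (1455956_x_at). The dimmest tested one, 1416123_at, had means of 69.9 ± 25.3 in (+)/(+) and 152 ± 45.9 in (-)/(+) clones, a log2 difference of -0.97, and was not called (limma, adjusted p = 0.095). The remaining probe set, 1416124_at, was too dim to test (27.3 ± 5.14 in (+)/(+) and 31.7 ± 0.72 in (-)/(+) clones). Probe sets of 1 gene are read from the same RNA and do not count as replicates. Without clone 4, 5, 6, 2 or 3 the adjusted p of the leading probe set was 0.067, 0.079, 0.10, 0.055 and 0.087 in turn, and without clone 1 it was 0.0043.

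Ccnd3, the third D-type cyclin, had a signal at 1415907_at of 1979, 2229 and 1999 in (+)/(+) clones and 2206, 2725 and 2277 in (-)/(+) clones. Clone 5 of the (+)/(+) group lay above clone 1 of the (-)/(+) group, so the groups overlapped. The log2 difference was -0.21 with a 95% interval of -0.47 to 0.05 (limma, adjusted p = 0.33). That interval does not reach the difference seen at the leading probe set of Ccnd1, but a difference between the 2 genes was not tested. Its other 2 probe sets were too dim to test.

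Cdk6 and Cdk4 are the kinases that D-type cyclins activate. The signal of Cdk6 at 1435338_at was 246, 260 and 231 in (+)/(+) clones, against 408, 538 and 588 in (-)/(+) clones. Its highest (+)/(+) clone was well below its lowest (-)/(+) clone. The means were 245 ± 14.5 in (+)/(+) and 512 ± 93.0 in (-)/(+) clones, which is 2.09-fold lower, and the log2 difference had a 95% interval of -1.36 to -0.64 (limma, adjusted p = 0.016). At 1455287_at the signal was 255, 185 and 194 in (+)/(+) clones, against 360, 503 and 569 in (-)/(+) clones, with a log2 difference of -1.11 ± 0.20 (SE; limma, adjusted p = 0.020). This was the largest ratio among the tested probe sets of the 10 genes, 2.26-fold, and 0 of the 21 reached the 2.5-fold threshold named in the study's methods. Its dim probe set, 1460291_at, had 42.7 ± 20.1 in (+)/(+) and 50.6 ± 13.7 in (-)/(+) clones and was not tested. When all 3 probe sets were averaged, the log2 difference was -0.78 (limma, adjusted p = 0.078), and without clone 5, 6 or 3 the adjusted p of the leading probe set was 0.054, 0.090 and 0.066 in turn. Without clone 1 it was 0.0055.

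Cdk4 had a signal at 1422441_x_at of 4700, 3702 and 3983 in (+)/(+) clones and 3748, 4944 and 4942 in (-)/(+) clones. The groups overlapped, with clone 4 the highest of its group and clone 1 the lowest of the other. Its 3 probe sets gave log2 differences of -0.13, -0.10 and 0.01 with limma adjusted p-values of 0.60, 0.69 and 0.99. The 95% interval at the leading one was -0.43 to 0.16.

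**Figure D2:**
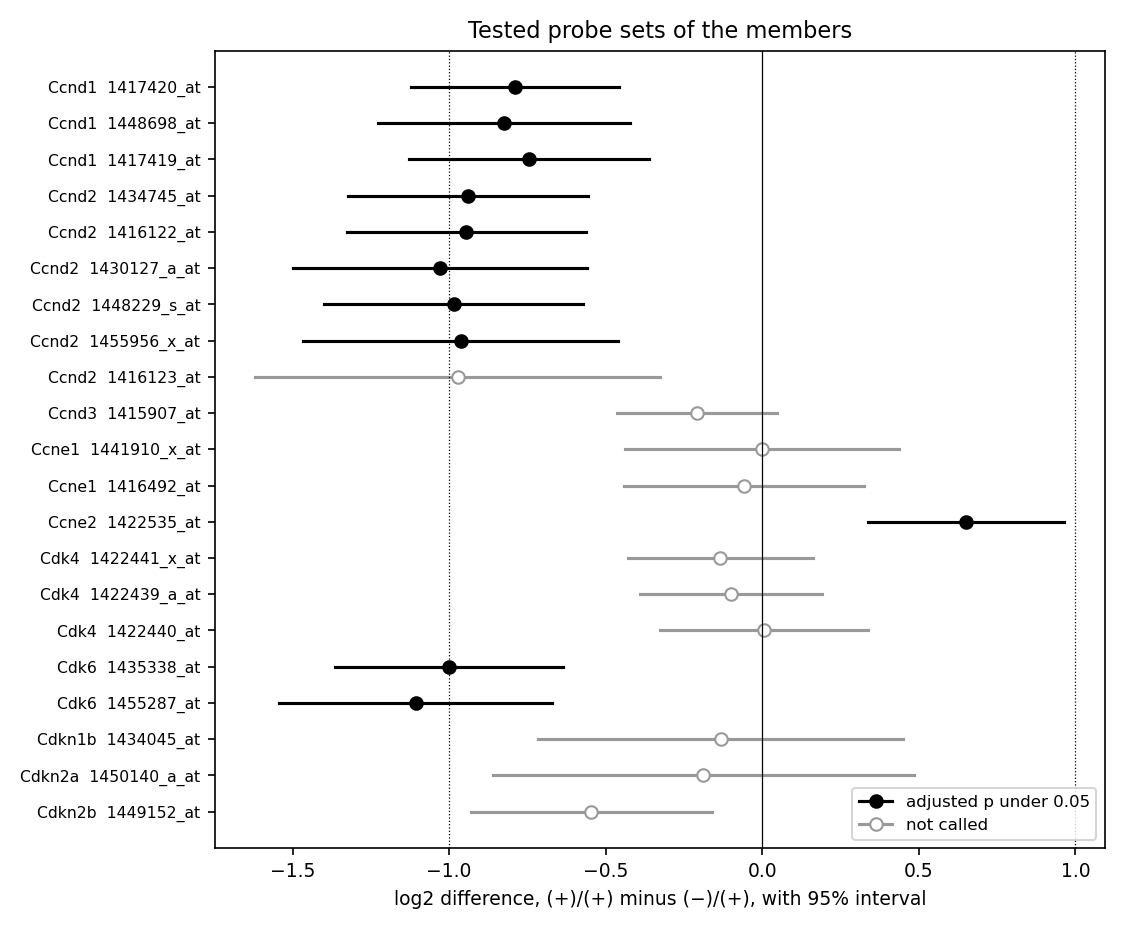
log2 difference, (+)/(+) minus (-)/(+), with its 95% interval from limma for the 21 tested probe sets; filled black points have an adjusted p under 0.05. All probe sets of Ccnd1 and all tested ones of Ccnd2 and Cdk6 lie between -1.11 and -0.75, Ccne2 is at 0.65, and the intervals of Ccnd3, Ccne1, Cdk4, Cdkn1b and Cdkn2a include 0.

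Of the E-type cyclins, which activate Cdk2 at the entry into S phase, 1 was called and 1 was not. Ccne2, which encodes cyclin E2, had a signal at its single probe set (1422535_at) of 1925, 1520 and 1680 in (+)/(+) clones, against 1233, 914 and 1107 in (-)/(+) clones. Every (+)/(+) clone was above every (-)/(+) clone. The means of 1708 ± 204 in (+)/(+) and 1085 ± 160 in (-)/(+) clones are a 1.57-fold higher signal and a log2 difference of 0.65 ± 0.14 (SE; 95% interval 0.34 to 0.96; limma, adjusted p = 0.040). The adjusted p was 0.11, 0.074, 0.15, 0.081 and 0.11 without clone 4, 5, 6, 2 or 3 in turn and 0.023 without clone 1, with a higher signal in (+)/(+) clones each time.

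Ccne1, which encodes cyclin E1, had a signal at 1441910_x_at of 3643, 2480 and 2501 in (+)/(+) clones and 3777, 2257 and 2661 in (-)/(+) clones. Here 1 clone of each group stood above the others, clone 4 and clone 1, and both were also the highest of their group at 1416492_at (2162 and 2244). The log2 differences were -0.00 (95% interval -0.44 to 0.44; limma, adjusted p = 0.997) and -0.06 (limma, adjusted p = 0.87). A difference in response between Ccne1 and Ccne2 was not tested.

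The CDK inhibitors gave no call. Cdkn2b had a signal at 1449152_at of 201, 235 and 190 in (+)/(+) clones, against 347, 252 and 343 in (-)/(+) clones. The groups did not overlap, but clone 5 and clone 2 were close. The means were 209 ± 23.2 in (+)/(+) and 314 ± 53.7 in (-)/(+) clones, or 66.5% of the (-)/(+) mean, and the log2 difference of -0.55 had a 95% interval of -0.93 to -0.16 before adjustment (limma, adjusted p = 0.11). In simulated data with spreads shuffled over probe sets the test recovered 0% of changes of 1.5-fold. In the real data it called smaller ones, such as that of Uhrf1 (1.39-fold). The simulation therefore does not give the power of the test at Cdkn2b.

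Cdkn2a, next to Cdkn2b on chromosome 4, had a signal at 1450140_a_at of 217, 135 and 188 in (+)/(+) clones and 315, 117 and 225 in (-)/(+) clones. The (-)/(+) group held both the highest and the lowest clone, clone 1 and clone 2. The log2 difference was -0.19 with a 95% interval of -0.86 to 0.48 (limma, adjusted p = 0.75), wide enough to include the value of Cdkn2b. This gene has 1 probe set, whose value does not say how much comes from the Ink4a and how much from the Arf transcript.

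Cdkn1b had a signal at 1434045_at of 573, 873 and 788 in (+)/(+) clones and 556, 1263 and 743 in (-)/(+) clones. Clone 2 was the highest of all and clone 1 the lowest, both of the (-)/(+) group. The log2 difference was -0.13 (95% interval -0.72 to 0.45; limma, adjusted p = 0.81), and the other probe set of Cdkn1b was too dim to test. For each of the 5 genes whose groups did not overlap, the two-sided exact permutation test over the 6 clones gave p = 0.1, the smallest it can give with 3 clones against 3. Of the 10 genes 4 were lower and 1 higher without overlap, against 26.3% of all 11177 tested genes in either direction.

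The fibroblasts from which the lines came and the SNL feeder cells also express D-type cyclins, so markers of fibroblasts were set beside the members. In a bulk sample fewer cells of a type and less RNA per cell cannot be told apart. Of 25 markers, 24 had a probe set and 20 were tested. Of these 10 were lower (against 1.41% of all tested genes) and 0 higher in (+)/(+) clones, the groups did not overlap at 15 (all lower, against 15.8% of all tested genes), and their median log2 difference was -0.66, against -0.05 over all tested genes. The collagen gene Col1a2 had 573 ± 114 in (+)/(+) and 1746 ± 330 in (-)/(+) clones (log2 difference -1.58; limma, adjusted p = 0.0043). The protease inhibitor gene Timp3 had 154 ± 33.8 in (+)/(+) and 424 ± 84.3 in (-)/(+) clones (-1.37; limma, adjusted p = 0.011). The intermediate filament gene Vim (-0.87) and the matrix proteoglycan gene Bgn (-1.08) were also lower (limma, adjusted p = 0.011 each). None of the 24 averaged 0, but Col1a1 (42.3 ± 4.33 in (+)/(+) and 96.0 ± 8.50 in (-)/(+) clones), Lum, Tagln and Twist2 were too dim to test.

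The summed signal of the 24 markers was 33018, 34882 and 36008 in (+)/(+) clones 4, 5 and 6, against 45090, 54680 and 58542 in (-)/(+) clones 1, 2 and 3. Within the (-)/(+) group clone 1 was lowest and clone 3 highest for this sum, and likewise for the leading probe sets of Ccnd1, Ccnd2 and Cdk6. Single markers did not all share this order. Col1a2, Timp3 and Bgn had it, but Vim and Fn1 were highest in clone 2 and Sparc in clone 1. Vim, Lgals1 and Fn1 made up 62.5% of the (-)/(+) sum. Within the (+)/(+) group clone 6 had the highest sum and the highest Ccnd2 signal, but the lowest Ccnd1 and Cdk6 signals, and without Lgals1 clone 5 had the highest sum (27525, against 26287 in clone 6). Marker by marker, the (+)/(+) mean was between 32.8% (Col1a2) and 117% (Postn) of the (-)/(+) mean, with a median of 60.6% over the 20 tested markers. It was 56.9% for Ccnd1, 50.2% for Ccnd2 and 47.9% for Cdk6, inside that range, and 4 markers (Col1a2, Timp3, Col3a1 and Bgn) lay below all of these. Ccne2 went the other way, at 157% of the (-)/(+) mean. Whether the array samples were freed of feeder cells is not stated in the sources used here, and the part of fibroblast RNA in the lower Ccnd1, Ccnd2 and Cdk6 signals was not tested.

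Markers of endoderm and trophectoderm went the other way in part. Of 10 such markers 6 were tested and 0 called. At an unadjusted limma p under 0.05, 2 were higher in (+)/(+) clones, against 8.75% of all tested genes. Both were without overlap, against 26.3% of all tested genes in either direction. The keratin gene Krt18 had 972, 674 and 571 in (+)/(+) clones, against 522, 260 and 400 in (-)/(+) clones (log2 difference 0.90; limma, adjusted p = 0.079). Its partner Krt8 had 469, 416 and 316 in (+)/(+) clones, against 250, 258 and 275 in (-)/(+) clones (0.57; limma, adjusted p = 0.091). Among the other tested markers Gata6 (0.46) and Sox17 (0.53) were higher and Gata4 (-0.48) and Eomes (-0.13) lower, all with overlap. Cdx2, too dim to test, had 33.6 ± 25.6 in (+)/(+) and 82.8 ± 13.5 in (-)/(+) clones, with every (+)/(+) clone below every (-)/(+) clone. The other dim markers overlapped. The summed signal of the list was 1695 to 2342 in (+)/(+) and 1555 to 1637 in (-)/(+) clones, with a median log2 difference of 0.50 over the 6 tested. Its part in the higher Ccne2 signal was not tested. Of 8 neural and mesoderm markers 2 were tested and 0 called.

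**Figure D3:**
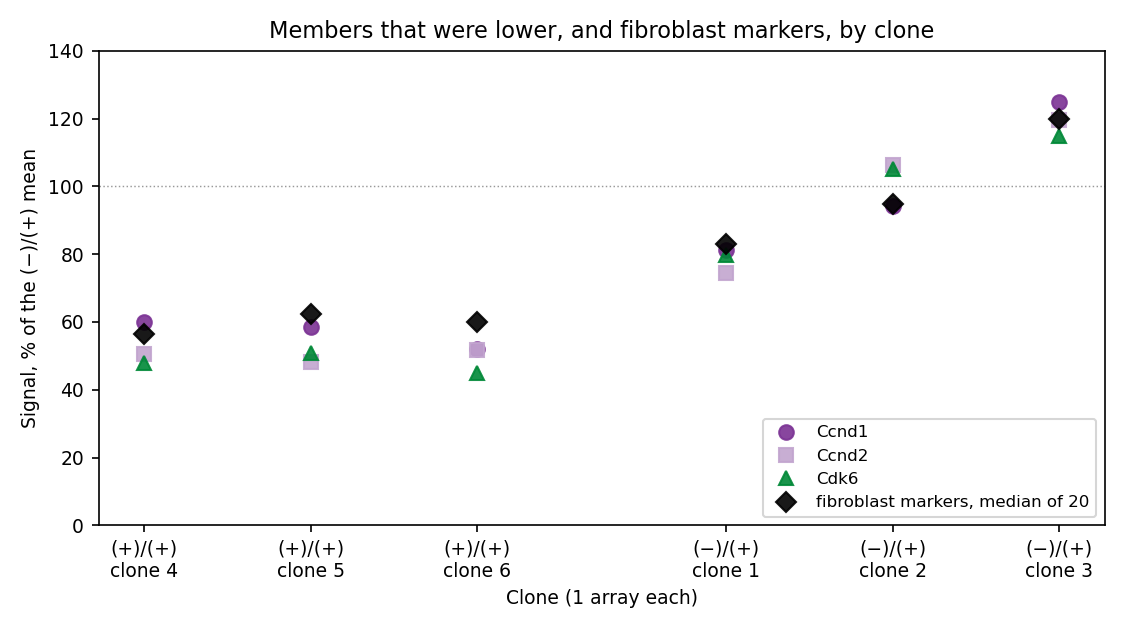
Signal of Ccnd1, Ccnd2 and Cdk6 in each clone (x axis) as a percentage of the mean of the (-)/(+) clones (y axis, from 0), with the median of the same percentage over 20 tested fibroblast markers. The 3 (+)/(+) clones lie between 45.1% and 62.3%, and the (-)/(+) clones between 74.3% and 125%, with clone 1 lowest and clone 3 highest for all 4.

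Other genes of the G1 and S machinery showed few calls. Among the lists named here, 108 of the 116 genes were tested, 0 were higher and 2 lower in (+)/(+) clones, 1.85% in either direction, against a background of 2.96%. With each array scaled to a common median 4 were higher and 0 lower. Over all 22518 tested probe sets that scaling gave 917 higher and 238 lower, so the share of the lists was near that of all probe sets.

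None of the 4 other CDK inhibitors was called (median log2 difference 0.07). At an unadjusted limma p under 0.05, 1 was higher, against 8.75% of all tested genes. Cdkn1a, which encodes p21 and is a target of p53, had 1555 ± 45.4 in (+)/(+) and 1769 ± 261 in (-)/(+) clones (limma, adjusted p = 0.45). Of the 10 other cyclins and kinases 8 were tested and 0 called, with 2 higher at an unadjusted limma p under 0.05, against the same 8.75%. Cdk1, the mitotic kinase, had 9370 ± 860 in (+)/(+) and 7915 ± 132 in (-)/(+) clones, without overlap (limma, adjusted p = 0.16). Of 13 genes of the retinoblastoma family and E2F 12 were tested and 0 called (median -0.16). At an unadjusted limma p under 0.05, 1 of them was higher and 1 lower, against 8.75% and 12.1% of all tested genes. Tfdp1, the dimerisation partner of E2F, had 8102, 4961 and 4863 in (+)/(+) clones and 5126, 4800 and 5025 in (-)/(+) clones, so that clone 4 alone stood apart. Tfdp1 lies on chromosome 8, which was raised in that clone.

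Genes that E2F switches on for S phase were called in 2 of 21 cases, both lower, against 1.41% of all tested genes. Uhrf1, which helps to copy DNA methylation, had 5516, 5348 and 5161 in (+)/(+) clones, against 6656, 8248 and 7319 in (-)/(+) clones (log2 difference -0.47 ± 0.10 SE; limma, adjusted p = 0.036). Tyms, the enzyme that makes thymidylate, had 61.1, 77.4 and 96.8 in (+)/(+) clones, against 151, 157 and 150 in (-)/(+) clones (-0.85 ± 0.20 SE; limma, adjusted p = 0.049), at a signal near the filter. Without clone 2, 3, 4, 5 or 6, without the filter or without the trend 0 of the list were lower. The same held with each array scaled to a common median, by the methods' t-test and with each gene's probe sets averaged. Without clone 1 the count was 1, Uhrf1. Neither belongs to the replication helicase, whose Mcm genes were not called. The median of the list was -0.07, close to that of all genes.

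The 16 genes of G2 and mitosis held 0 calls, with a median of -0.07. At an unadjusted p under 0.05, 4 were higher and 1 lower in (+)/(+) clones, against 8.75% and 12.1% of all tested genes. Top2a, a topoisomerase of dividing cells, had 12482 ± 854 in (+)/(+) and 14033 ± 2654 in (-)/(+) clones (limma, adjusted p = 0.50). Clone 1 alone was high, at 17092, and Top2a lies on chromosome 11, which was raised in that clone; without it the (-)/(+) mean was 12504. The 16 genes listed for the turnover and phosphorylation of G1 regulators also held 0 calls (median -0.02). Cks2, a subunit of cyclin-dependent kinases, was nearest, with 18395, 15462 and 18439 in (+)/(+) clones and 14273, 12716 and 14233 in (-)/(+) clones, without overlap (log2 difference 0.34; limma, adjusted p = 0.074).

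Regulators of the Ink4-Arf locus, mostly Polycomb proteins that silence it, were tested in 17 of 19 cases with 0 calls (median -0.19). At an unadjusted p under 0.05, 2 of the 17 were lower, a share near the 12.1% of all tested genes. Suz12, a subunit of Polycomb repressive complex 2, had 9571 ± 942 in (+)/(+) and 10119 ± 2435 in (-)/(+) clones (limma, adjusted p = 0.85), and it also lies on chromosome 11, with 12831 in clone 1 and a (-)/(+) mean of 8763 without that clone. Of the 5 genes of the Arf and p53 axis 4 were tested and 0 called. Npm1, the nucleolar protein that binds Arf, had 30241 ± 3426 in (+)/(+) and 27008 ± 1754 in (-)/(+) clones (limma, adjusted p = 0.35). Of 11 transcription regulators of D-type cyclins 10 were tested and 0 called (median -0.08). Here 1 was higher and 1 lower at an unadjusted limma p under 0.05, against 8.75% and 12.1% of all tested genes. Ctnnb1, which encodes the beta-catenin that GSK3 marks for destruction, had 17257 ± 552 in (+)/(+) and 15870 ± 498 in (-)/(+) clones (log2 difference 0.12; limma, adjusted p = 0.36).

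**Figure D4:**
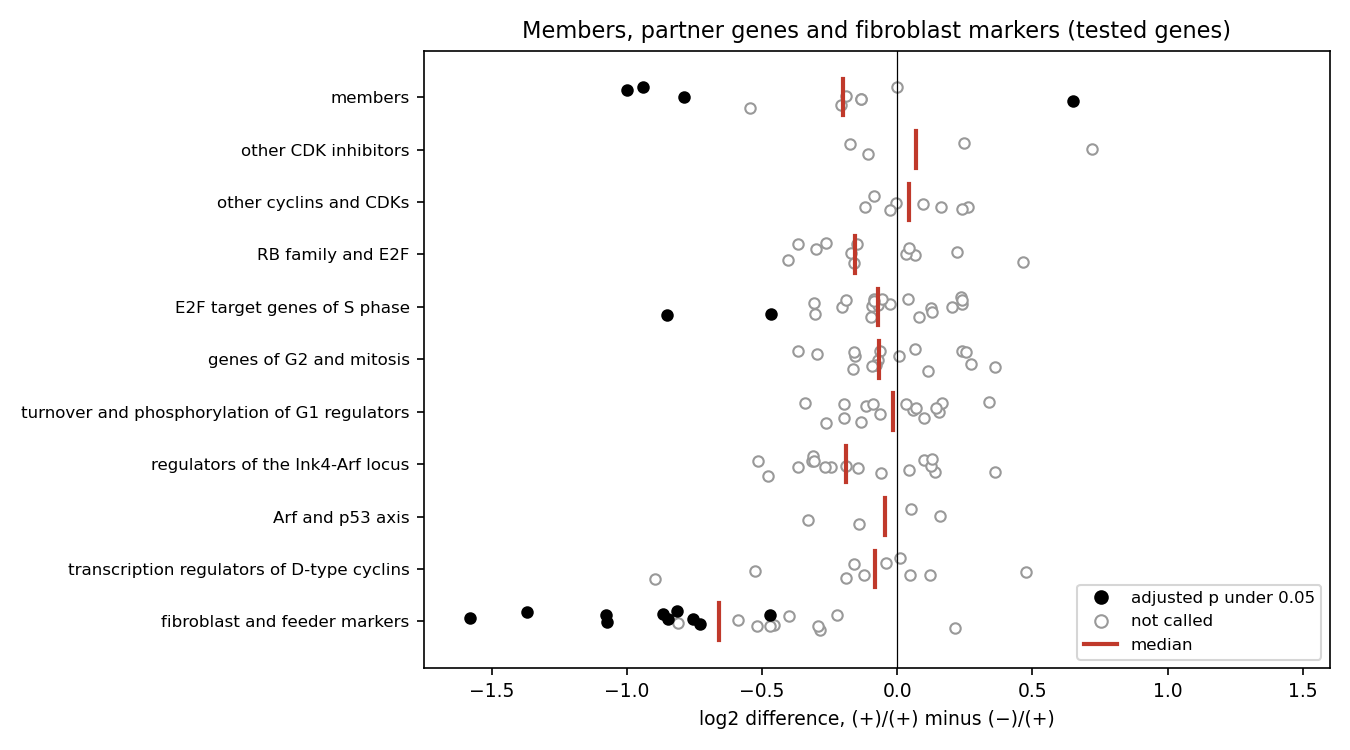
log2 difference, (+)/(+) minus (-)/(+), of each tested gene (x axis) by list (rows, scattered for legibility), with calls in black and list medians as red bars. Calls appear among the members (3 lower, 1 higher), the S-phase targets (2 lower) and the fibroblast markers (10 lower), and in no other list shown.

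Single clones can gain or lose stretches of chromosome, so the position of each gene was examined. For each member, up to 10 genes with a mean signal above 500 were taken on each side, and the median of their shifts against the 6-clone median was computed. These medians are descriptive, and the part of gained or lost chromosome stretches in the signal of any member was not tested. The Ccnd2 segment of chromosome 6, between Tigar and Tspan9, had shifts of -0.08, -0.04 and -0.05 in (+)/(+) clones and -0.02, 0.20 and -0.01 in (-)/(+) clones. Ccnd2 itself shifted by 0.76 in clone 2 and by 0.92 in clone 3, where the segment shift was -0.01. The Cdkn1b segment, also on chromosome 6, was raised by 0.15 in clone 2, where Cdkn1b shifted by 0.71.

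The Ccne2 segment of chromosome 4 was 0.05, 0.05 and 0.03 in (+)/(+) clones and -0.06, -0.04 and -0.07 in (-)/(+) clones, a group difference of 0.10, in the same direction as that of Ccne2 (0.65) and smaller. The Cdk6 segment of chromosome 5 held 10 genes, all at higher positions than Cdk6, and differed by 0.10, opposite to Cdk6. The Ccnd1 segment of chromosome 7 held 10 genes, all at lower positions than Ccnd1, and differed by -0.03. Clones 4 and 1, the highest for Ccne1, had shifts of -0.01 and 0.00 in the Ccne1 segment, also on chromosome 7. Around Cdkn2a and Cdkn2b the shifts lay between -0.04 and 0.06, while Cdkn2a itself ranged from -0.71 in clone 2 to 0.61 in clone 1.

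**Figure D5:**
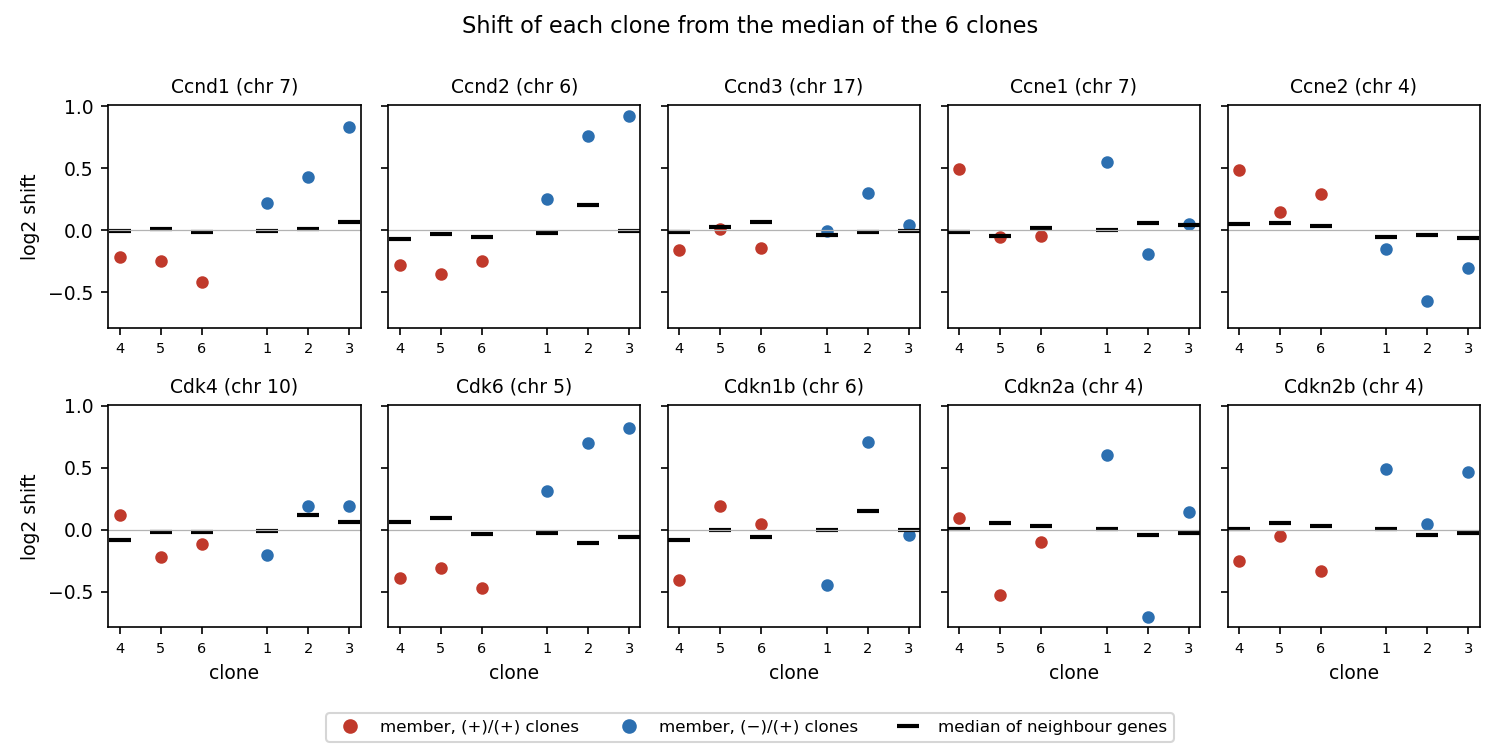
Shift on the log2 scale of every clone against the 6-clone median, for each gene (points, red for (+)/(+) and blue for (-)/(+) clones) and for its neighbour genes (black bars, median). The bars stay between -0.10 and 0.20, the latter for Ccnd2 in clone 2, while the points of Ccnd2 reach 0.92.

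The genes whose signals followed Cdk6, Ccnd2 and Ccnd1 most closely were sought among 6026 genes with a mean signal above 500, by Pearson's correlation over the 6 arrays. These values describe 6 points in 2 separated groups and carry no test. Cdk6 was followed by Mapre2 (r = 0.999), which encodes a protein of microtubule ends, Agrn (0.998), which encodes the matrix proteoglycan agrin, and Tns3 (0.995), which encodes a focal adhesion protein. Ccnd2 was followed by Tada3 (0.996), a subunit of histone acetyltransferase complexes, Tm4sf1 (0.990), a membrane protein, and Ahnak (0.987), a very large scaffold protein. Ccnd1 was followed by Cavin2 (0.996), a protein of caveolae, Cd44 (0.994), the hyaluronan receptor, and Ptn (0.992), the growth factor pleiotrophin. Cd44 is itself on the list of fibroblast markers. Mapre2 had 1267, 1324 and 1235 in (+)/(+) clones, against 1723, 1978 and 2167 in (-)/(+) clones, the same order of (-)/(+) clones as Cdk6.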

How the data were processed

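The authors extracted total RNA from 6 iPSC clones, labelled it with biotin, hybridised it to Affymetrix arrays and, after MAS 5.0 quantification, deposited 1 linear signal intensity per probe set. Detection calls and probe-level values were not used here. Scan batches are not given in the sources used here, and their part in any difference was not tested. Of 45101 probe sets 64 controls were left out. Symbols came from the array annotation: 34945 probe sets have 1 symbol, 932 several and 9160 none, and 34741 matched a RefSeq gene (GRCm38.p6).

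All values were converted to log2(signal + 16), which understates changes of low signals, with no further normalization. The 22518 probe sets whose mean exceeded the median over all were tested in R 4.3.3 with limma 3.58.1 (lmFit, eBayes with trend) on group alone, at a Benjamini-Hochberg adjusted p under 0.05. A gene was read at its brightest probe set. On simulated data with 200 changed probe sets the fit recovered 0%, 53.5% and 87.0% of 1.5-, 2- and 3-fold changes, with 0%, 4.46% and 5.95% of calls false. The simulated spreads were shuffled over probe sets, which breaks their relation to the signal, so these shares need not hold for the real data. Alternatives were no filter, a filter on mean signals above 500, pseudocounts of 64 and 1, a common median signal, quantile normalization, the methods' t-test, arrayWeights, no eBayes trend, averaging each gene's probe sets, 20 neighbour genes on each side and leaving out each clone. The t-test was run on the log2 values with the same adjustment, which the study's methods do not name. Leaving out clones 1 and 4 together was added after the data were examined.

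The members and gene lists were chosen with earlier results of these data known. Genes named are the 10 members with all their probe sets, in each partner list up to 2 called genes with the smallest adjusted p or otherwise the 1 with the highest signal, 4 called fibroblast markers, and 3 genes nearest in pattern to each of the 3 members with the smallest p. Krt8, Gata4, Gata6, Sox17, Eomes, Cdx2, Col3a1, Postn, Fn1, Lgals1, Sparc and the dim fibroblast markers were named after their values were seen. Only 3 clones per group limit the precision. Plots were made in matplotlib 3.10.9 under Python 3.11.15.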

Additional observations from a re-analysis of the deposited data

How the results depend on the processing

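The 10 lower member probe sets became 6 with quantile normalization, 3 with a mean signal above 500 (12 tested), 2 without the eBayes trend, 1 without a filter (26 tested) and 0 by the methods' t-test. The 3 lower member genes became 1 without a filter, 1 without the trend and 0 by the t-test, and the 1 higher gene and probe set, Ccne2, became 0 in each of these. Leaving out each clone in turn gave 0 to 11 lower and 0 to 1 higher member probe sets, and 0 to 3 lower and 0 to 1 higher member genes. Leaving out clones 1 and 4 together gave 11 lower probe sets and 12 calls in all, which included the 11 made with all clones. The signs of Ccnd1, Ccnd2, Cdk6 and Ccne2 at the leading probe sets held in every setting that tested them. Cdkn2b was called with arrayWeights alone (limma, adjusted p = 0.029, over a range of 0.029 to 0.31).

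In the partner lists the 2 lower genes became 1 with quantile normalization, a pseudocount of 1, a mean signal above 500, the mean of all probe sets and without clones 1 and 4, 0 with a common median, no filter, no trend and the t-test, and 6 with arrayWeights; the 0 higher genes became 4 with a common median, 5 with arrayWeights and 2 without clones 1 and 4. Leaving out each clone gave 0 to 1 lower and 0 to 0 higher. The 10 lower fibroblast markers became 5 without a filter, 6 with a mean signal above 500 or the mean of all probe sets, 4 without the trend and 0 by the t-test, and 1 to 11 on leaving out each clone, with 0 higher throughout.

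Over all probe sets, 305 were higher and 398 lower (43.4% of calls higher). Scaling to a common median moved the median of all probe sets by over 0.1, to 0.10 from -0.05 on the log2 scale, and gave 917 higher and 238 lower (79.4% higher), with Ccnd1 at -0.63, Ccnd2 at -0.79, Cdk6 at -0.85 and Ccne2 at 0.81. The counts were 287 and 255 with quantile normalization, 101 and 120 without a filter, 215 and 165 with a mean signal above 500, 87 and 178 without the trend, 1015 and 1512 with arrayWeights and 0 and 1 by the t-test. They were 446 and 515, 151 and 209, 112 and 79, 117 and 113, 48 and 63, and 27 and 25 without clone 1, 2, 3, 4, 5 or 6, and 535 and 527 without clones 1 and 4. With 20 neighbour genes on each side, the group difference of the Ccnd3 segment was -0.05 (0.04 with 10) and that of the Ccne2 segment 0.13. The cause of these changes was not tested. No paired analysis was possible because the groups share no clone number. Signals near the array's background limit the dim probe sets.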
